A study of Homo sapiens with 24 samples.

Results

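The genes described here are 9 members of the bone morphogenetic protein (BMP) pathway: the secreted antagonists NOG, GREM1 and FST, the ligands BMP2, BMP4 and BMP7, and the target genes ID1, ID2 and ID3. They are 9 of 20503 gene symbols on the array, reached through 13 of 50683 probes, each taken because the RefSeq transcript of the probe belongs to one of these genes. The arrays hold RNA of HepaRG, a bipotent liver progenitor line, kept 72 h in serum-free medium in 8 groups of 3 cultures. Cells were left untransfected, given 80 pmol of a control siRNA or of a siRNA against CTNNB1 (β-catenin), or given 300 ng/ml of mouse FZD8_CRD, the soluble Wnt-binding domain of Frizzled-8. Each of these 4 backgrounds was kept with and without 200 ng/ml of mouse recombinant Wnt3a. The study delivered siRNA by electroporation, and no group was electroporated without siRNA. Against untransfected cells, control siRNA and the procedure therefore cannot be told apart. Levels are log2 signals from which the array's 75th percentile was subtracted, and a gene is called changed at a limma adjusted p under 0.05 over 24648 genes. NOG is among the genes that the study's own list selected on these same arrays, both for Wnt3a and for sensitivity to β-catenin siRNA and FZD8_CRD, so its responses to all 3 are not separate observations.

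The labels call the line a hepatocellular carcinoma line, and of 9 hepatocyte markers 8 were well above background on all 24 arrays. So were 7 of 8 biliary and progenitor markers, 6 of 7 mesenchymal markers, 4 of 5 endothelial markers and 2 of 5 leukocyte markers. CTNNB1 read 3.35, 3.37 and 3.51 with control siRNA and 0.26, 0.35 and 0.52 with its own siRNA. Every array of the β-catenin siRNA lay far below every control array (limma log2 difference -3.03, and -3.02 with Wnt3a). The arrays were scanned as 3 slides, each with all 8 groups, and replicate 1, 2 or 3 below is the slide. Each group sat at the same place on every slide, with the Wnt3a arrays in the second row, so place and treatment cannot be told apart. Replicate 3 of FZD8_CRD alone stood apart: its root mean square distance was 0.51 to its own group, the highest of 24 arrays, and 0.30 to the FZD8_CRD plus Wnt3a group, its nearest. Another 5 arrays were also nearer to another group than to their own: untreated replicate 3 (0.44 against 0.34 to Wnt3a), Wnt3a replicates 2 (0.46 against 0.35 to control siRNA plus Wnt3a) and 3 (0.47 against 0.38 to untreated), control siRNA plus Wnt3a replicate 1 (0.37 against 0.36 to control siRNA) and β-catenin siRNA plus Wnt3a replicate 3 (0.40 against 0.35 to β-catenin siRNA). The own-group distance was taken to the mean of the rest of the group, other distances to the mean of a whole group. This makes the own-group distance somewhat larger, so the small gap of control siRNA plus Wnt3a replicate 1 decides nothing. Without slide 3 the all-gene calls for Wnt3a without transfection went from 1381 to 6344. Values without replicate 3 of FZD8_CRD alone are given further on for members, lists and markers. Each of the other arrays was left out in turn for the members and the all-gene counts only.

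BMP ligands bind paired serine-threonine kinase receptors, and phosphorylated SMAD1, SMAD5 and SMAD9 then carry the signal to the nucleus with SMAD4. ID1, ID2 and ID3 are direct targets whose products lack a DNA-binding region and hold E proteins away from DNA. Noggin and gremlin-1 bind BMP ligands outside the cell, follistatin binds mainly activins and also some BMPs, and in several tissues the genes for such antagonists lie downstream of Wnt signalling.

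Of the 9 members, 7 had a probe well above background on all 24 arrays, BMP7 had a dim probe, and GREM1 was too dim to test. BMP7 entered the test only through the control siRNA plus Wnt3a group, where it was highest, so its calls against that group are no evidence of a difference. Member counts in this and the next paragraph are given without it first. Wnt3a without transfection changed 2 of 7 tested members (2 of 8 with BMP7), where 5.6% of all genes were called (2.99% higher, 2.61% lower): NOG rose and ID2 fell. After control siRNA, Wnt3a changed 1 of 7, NOG, which was higher (2 of 8 with BMP7), where 2.11% of genes were called (1.09% higher, 1.02% lower). After β-catenin siRNA limma called 0 of 7 for Wnt3a (0 of 8 with BMP7), where 0.0406% of genes were called. There 3 of 7 members and 2575 of 24648 genes had an unadjusted limma p under 0.05. With FZD8_CRD present limma called 0 of 7 for Wnt3a (0 of 8 with BMP7), where 8.29% of genes were called. In that comparison 4 of 7 members and 5046 of 24648 genes had an unadjusted limma p under 0.05.

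Control siRNA against no transfection lowered 2 of 7 members, BMP2 and ID2 (2 of 8 with BMP7; 22.3% of genes called), and in the presence of Wnt3a 2 of 7 changed, BMP2 lower and ID3 higher (2 of 8; 9.04%). β-catenin siRNA against control siRNA raised 4 of 7 members (4 of 8 with BMP7), where 10.6% of genes were called (4.4% higher, 6.16% lower): BMP2, ID1, ID2 and ID3. With Wnt3a present in both, 5 of 7 changed (6 of 8 with BMP7), where 10.6% of genes were called (4.08% higher, 6.5% lower): BMP2, ID1 and ID3 rose, and NOG and BMP4 fell. FZD8_CRD against untreated cells changed 4 of 7 members (4 of 8 with BMP7), where 41.9% of genes were called (19.7% higher, 22.2% lower): ID1 and ID3 rose, and BMP2 and ID2 fell. FZD8_CRD plus Wnt3a against Wnt3a alone changed 6 of 7 (6 of 8), where 37.2% of genes were called (18.2% higher, 18.9% lower): ID1 and ID3 rose, and NOG, FST, BMP4 and ID2 fell. For the difference of the Wnt3a responses between β-catenin and control siRNA limma called 0 of 7 (0 of 8 with BMP7), where 0.0162% of genes were called. By limma, 2 of 7 members (3 of 8 with BMP7) and 822 of 24648 genes had an unadjusted p under 0.05. For the difference between FZD8_CRD and none, 1 of 7 was called, NOG (1 of 8; 0.073% of genes called). The comparisons share control groups, so their counts are not independent of each other. The 3 arrays of a group limit the precision of each value. With so few arrays, groups without overlap or a sign shared by all slides are descriptions and no calls. The share of all genes that show them was not counted.

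**Figure D1:**
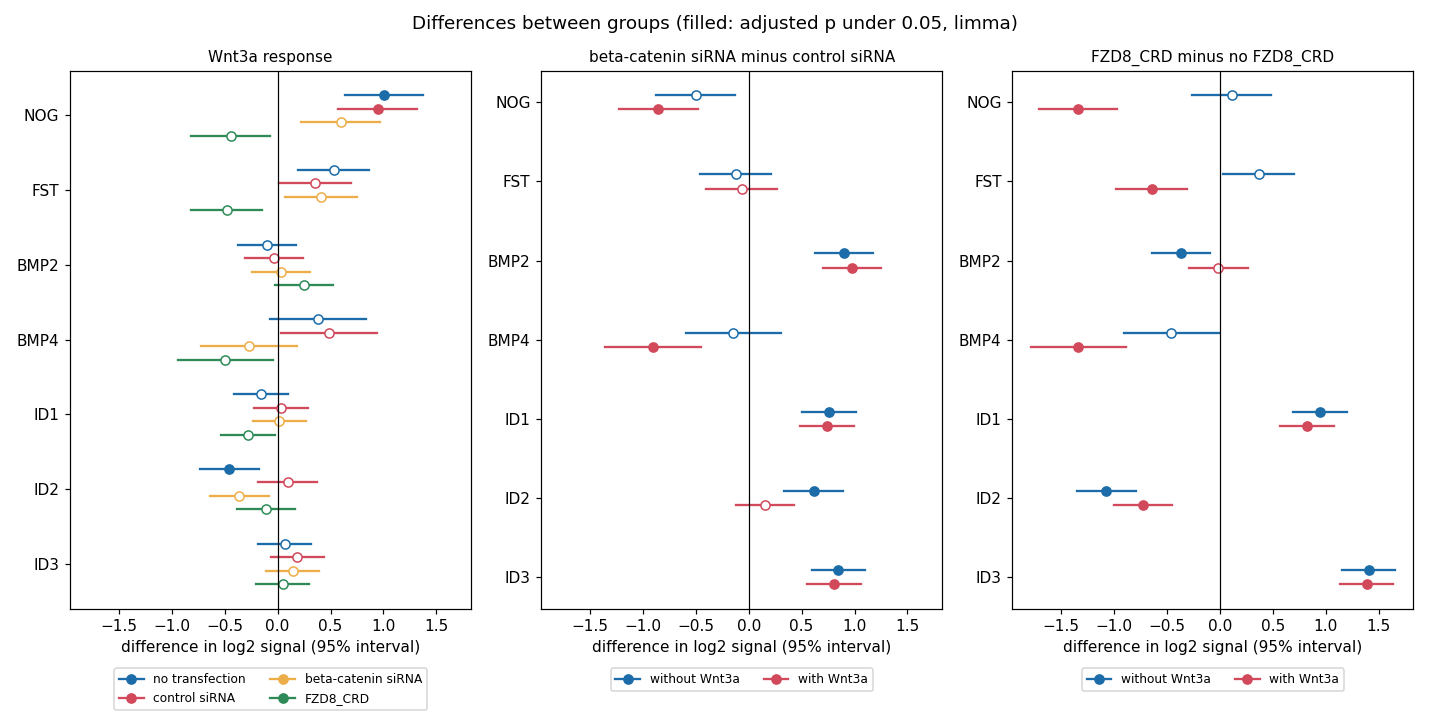
Log2 differences with 95% intervals of 7 members for the Wnt3a response in 4 backgrounds, for β-catenin siRNA against control siRNA and for FZD8_CRD against none, filled where the adjusted p was under 0.05. ID3 with FZD8_CRD is the highest at 1.41, and NOG and BMP4 with FZD8_CRD plus Wnt3a are the lowest, both at -1.34.

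NOG encodes noggin, which binds BMP ligands outside the cell. It read -2.95, -2.78 and -2.90 in untreated cells and -1.98, -1.53 and -2.10 with Wnt3a. Every Wnt3a array lay above every untreated array, by a wide gap. The limma log2 difference was 1.01 (95% interval 0.63 to 1.38, adjusted p 0.00395), and within slides it was 0.97, 1.24 and 0.80. After control siRNA the values were -3.00, -3.00 and -3.21 without and -2.25, -2.01 and -2.10 with Wnt3a, again with no overlap and with the Wnt3a arrays high. There NOG rose by 0.95 (limma, 0.57 to 1.32, adjusted p 0.00942), higher on 3 of 3 slides. The first call was lost with spike-in scaling (adjusted p by limma 0.28), with only the groups compared (0.349), without slide 1 (0.198) and without slide 2 (0.354), over a range of 0.000754 to 0.354 in 21 settings. The second was lost by limma with spike-in scaling (0.237), without slide 1 (0.275) or 2 (0.223), without control siRNA replicate 3 (0.0653) and without control siRNA plus Wnt3a replicate 2 (0.0632), over a range of 0.0028 to 0.275.

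After β-catenin siRNA, NOG read -3.48, -3.45 and -3.78 without and -2.88, -3.05 and -3.01 with Wnt3a, the lowest group of the 8 and a group level with untreated cells. These groups did not overlap either. The limma difference for Wnt3a, 0.60 (0.22 to 0.97), was not called (adjusted p 0.251), though it was positive on each slide (0.60, 0.40 and 0.78) and passed the thresholds of the study. Its difference from the response after control siRNA, -0.35 (-0.88 to 0.17), was not called by limma either (adjusted p 1). With Wnt3a in both groups, the β-catenin siRNA lowered NOG by limma (-0.86, -1.23 to -0.48, adjusted p 0.00299), within slides -0.63, -1.04 and -0.90. That call was lost by limma with spike-in scaling (0.0775) and without slide 1 (0.0716) or 2 (0.106), over a range of 0.00069 to 0.106. Without Wnt3a the limma difference was -0.50 at an adjusted p of 0.079; it was called with the slide as block (0.0285), with normexp correction (0.0296) and, just under the threshold, with only the groups compared, over a range of 0.0285 to 1.

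With FZD8_CRD, NOG read -2.56, -2.44 and -3.29 without and -3.25, -3.24 and -3.14 with Wnt3a. Here the Wnt3a arrays were low, and replicate 3 of FZD8_CRD alone lay below all of them and below both other arrays of its group. The limma difference for Wnt3a was -0.45 (-0.82 to -0.07, adjusted p 0.143), within slides -0.68, -0.80 and 0.15, so slide 3 had the other sign. Against Wnt3a alone, FZD8_CRD plus Wnt3a lowered NOG (limma -1.34, -1.71 to -0.97, adjusted p 1.18e-05) on 3 of 3 slides with no overlap, and the call held in 21 of 21 settings. The difference of the Wnt3a responses with and without FZD8_CRD was -1.45 (limma, -1.98 to -0.93, adjusted p 0.0399), within slides -1.66, -2.04 and -0.66. That call held in 12 of 27 settings (limma adjusted p 2.77e-05 to 1), and the absence of a single array ended it for untreated replicates 1 (0.137) and 2 (0.0784), Wnt3a replicates 1 (0.071) and 2 (0.0921), FZD8_CRD replicates 1 (0.162) and 2 (0.168) and FZD8_CRD plus Wnt3a replicates 1 (0.128), 2 (0.106) and 3 (0.0602). It was lost by limma also with spike-in scaling (0.626), a filter on all 24 arrays (0.0611), only the groups compared (0.672), the deposited table (0.0537) and without slide 1 (1) or 2 (1). Over the 8 groups NOG fell into 3 steps: Wnt3a (-1.87) and control siRNA plus Wnt3a (-2.12), then 5 groups from -2.77 to -3.21 whose neighbours overlapped, then β-catenin siRNA (-3.57), with no overlap between steps.

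**Figure D2:**
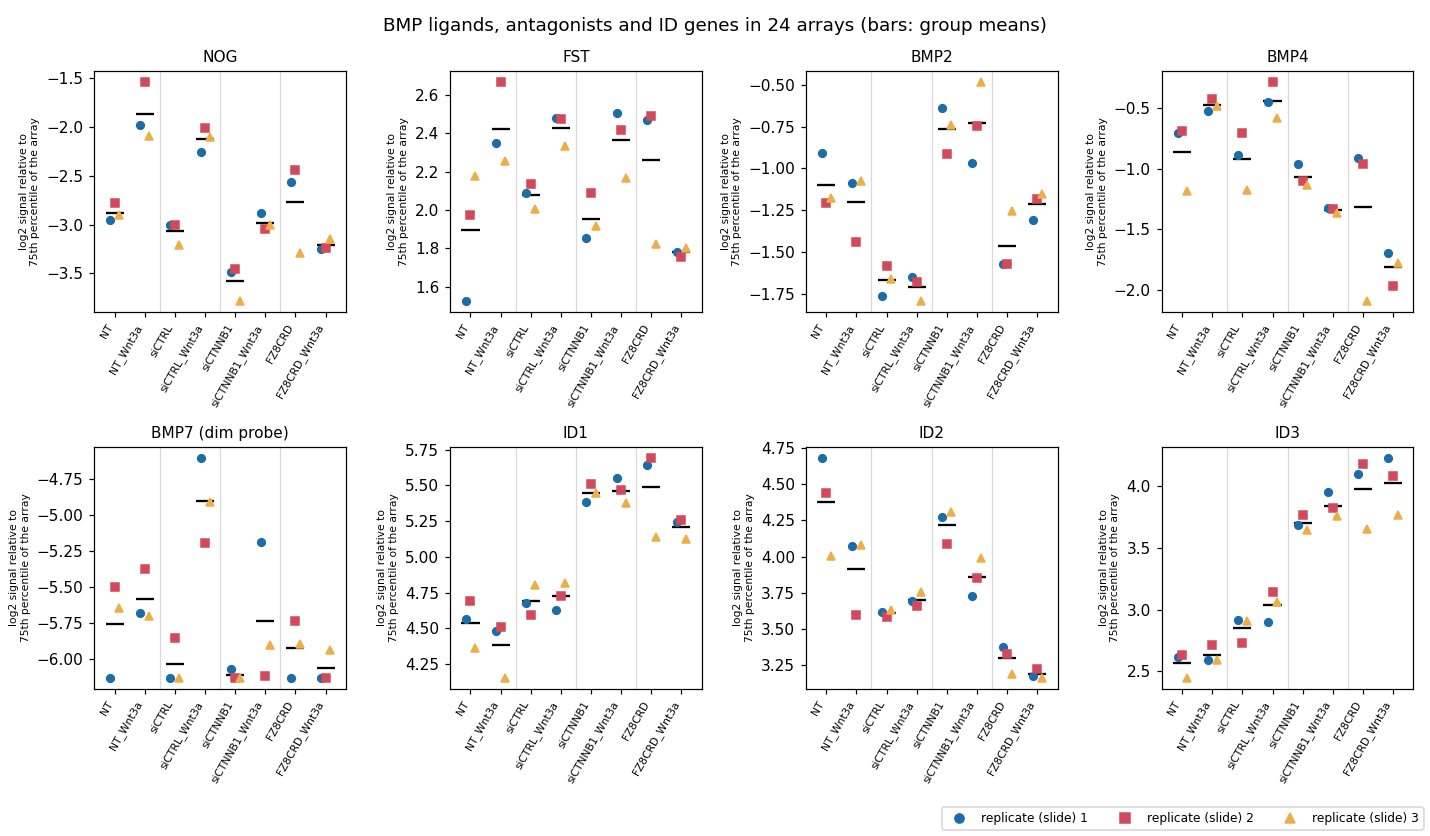
Log2 level of 8 members on each array by group, with group means as bars and the slide as marker. NOG is at -1.87 on average with Wnt3a and at -2.88 in untreated cells.

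FST encodes follistatin, which binds activins and some BMPs. It read 1.53, 1.98 and 2.18 in untreated cells and 2.35, 2.67 and 2.26 with Wnt3a. The Wnt3a arrays were the higher ones with a narrow gap, as untreated replicate 3 came close to Wnt3a replicate 3. The limma difference of 0.53 (0.19 to 0.87) was not called (adjusted p 0.058), and within slides it was 0.82, 0.69 and 0.08. It was called with the slide as block (limma 0.0302), quantile scaling (0.0429), the deposited table (0.039), and without slide 3 (0.00273), untreated replicate 3 (0.0159) or Wnt3a replicate 3 (0.0306), over a range of 0.00273 to 0.94. Wnt3a gave 0.35 after control siRNA (limma adjusted p 0.319, but 0.0287 with only those groups) and 0.41 when β-catenin was the target (0.369), without overlap of the groups in either case. The difference between those responses was 0.06 (limma, -0.42 to 0.53).

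With FZD8_CRD, FST read 2.47, 2.49 and 1.83, and with FZD8_CRD plus Wnt3a it read 1.78, 1.75 and 1.80. The Wnt3a arrays were low and close together, and replicate 3 of FZD8_CRD alone was just above them. The limma difference of -0.48 (-0.82 to -0.15) was not called (adjusted p 0.0723, with the slide as block 0.0407), and within slides it was -0.69, -0.74 and -0.02. FZD8_CRD plus Wnt3a against Wnt3a alone lowered FST (limma -0.65, -0.98 to -0.31, adjusted p 0.00357), within slides -0.57, -0.92 and -0.45. This call was lost by limma with spike-in scaling (0.12) and without slide 2 (0.114), over a range of 0.0011 to 0.12. Against untreated cells FZD8_CRD alone gave 0.37 by limma (adjusted p 0.0736), called with the slide as block (0.0469), without slide 3 (0.000893) and without untreated replicate 3 (0.0213), over a range of 0.000893 to 0.96, and it was -0.02 with spike-in scaling. The difference of the Wnt3a responses with and without FZD8_CRD was -1.01 (-1.49 to -0.54), uncalled by limma at 0.0809. It was called by limma with the slide as block (0.0419), without slide 3 (0.000778), untreated replicate 3 (0.0185) or Wnt3a replicate 3 (0.0415), and it passed the study's thresholds, over a range of 0.000541 to 1. FST stood highest with control siRNA plus Wnt3a (2.43) and Wnt3a (2.42) and lowest with FZD8_CRD plus Wnt3a (1.78), and all neighbouring groups in the order overlapped.

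GREM1 encodes gremlin-1, another antagonist of BMP2 and BMP4. Its 2 probes were well above background on 1 of 24 arrays, replicate 3 of β-catenin siRNA plus Wnt3a, where they read -5.43 and -4.87. No level or difference between groups can be given for it.

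**Figure D3:**
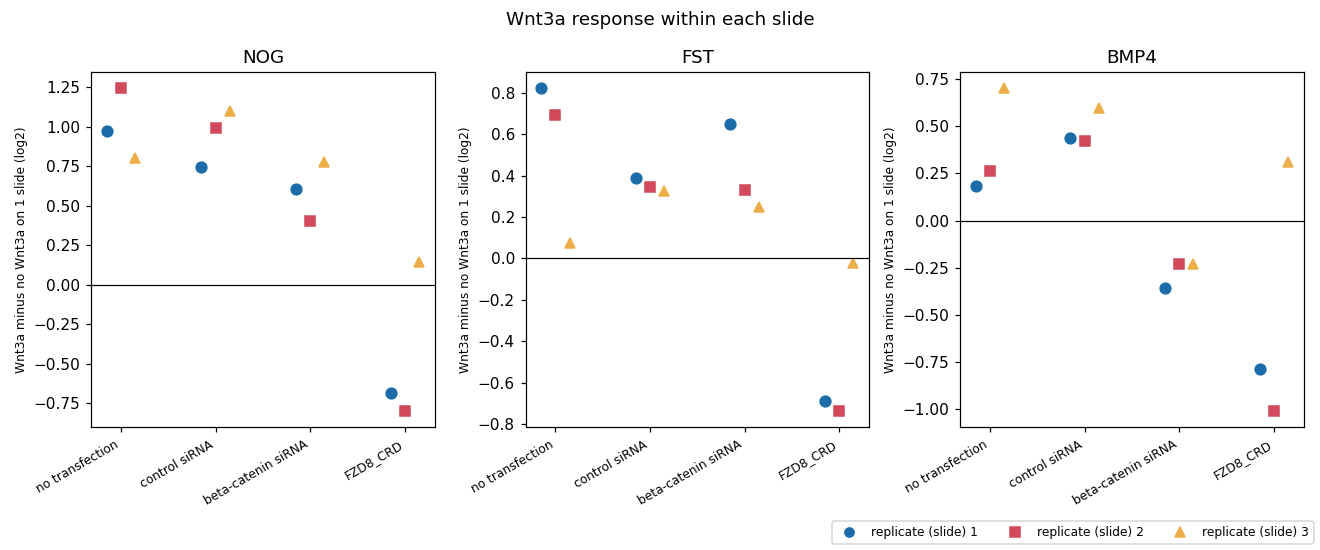
Difference between Wnt3a and no Wnt3a within each slide for NOG, FST and BMP4 in 4 backgrounds. With FZD8_CRD slide 3 gave 0.15 for NOG and 0.31 for BMP4, and slide 2 gave -0.80 and -1.01.

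BMP2 encodes a ligand that acts through BMP type I receptors. It read -1.76, -1.58 and -1.66 in the control siRNA group, against -0.64, -0.92 and -0.74 where β-catenin was the target. All β-catenin siRNA arrays were high and the groups stood well apart. BMP2 rose by 0.90 (limma, 0.63 to 1.18, adjusted p 0.000163), within slides 1.12, 0.67 and 0.92, a call kept in 21 of 21 settings. With Wnt3a in both groups the values were -1.65, -1.68 and -1.79 and -0.97, -0.74 and -0.48, again without overlap and with the β-catenin siRNA high. The rise was 0.97 (limma, 0.70 to 1.25, adjusted p 4.94e-05), within slides 0.68, 0.93 and 1.31, and it was not called with spike-in scaling (0.107; range 2.77e-05 to 0.107).

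BMP2 was lower after control siRNA than in untreated cells, which read -0.91, -1.21 and -1.18, with no overlap (limma -0.57, -0.85 to -0.29, adjusted p 0.00389). That call was lost by limma without slide 1 (0.17; range 0.00208 to 0.17). In the presence of Wnt3a control siRNA lowered it by limma too (-0.51, -0.78 to -0.23, adjusted p 0.0212), from -1.09, -1.44 and -1.07. This second call was kept in 11 of 21 settings (limma adjusted p 0.00365 to 0.679) and was lost with spike-in scaling (0.679), with only the groups compared (0.191), at the study's thresholds and without any one slide (0.228, 0.0679 and 0.128). Single arrays that ended it when absent were Wnt3a replicate 1 (limma 0.13) and 3 (0.0796) and control siRNA plus Wnt3a replicate 2 (0.0803) and 3 (0.0836). With FZD8_CRD alone BMP2 read -1.57, -1.57 and -1.26, below all untreated arrays, and it fell by limma (-0.37, -0.64 to -0.09, adjusted p 0.0304). The fall was called in 11 of 21 settings (limma adjusted p 0.0107 to 0.348); untreated replicate 1 (0.153) and FZD8_CRD replicates 1 (0.102) and 2 (0.112) were each needed. It was also lost by limma with normexp (0.0685), quantile scaling (0.127), only the groups compared (0.118), the deposited table (0.103), the study's thresholds, and without slide 1 (0.348) or 2 (0.143). The Wnt3a differences of BMP2 were -0.10, -0.04, 0.03 and 0.25 in untransfected, control siRNA, β-catenin siRNA and FZD8_CRD cells, none of them called by limma and with 0 of the 4 under an unadjusted p of 0.05. In order of level, β-catenin siRNA with Wnt3a (-0.73) and without (-0.77) came first, then untreated (-1.10) to FZD8_CRD (-1.47) with overlapping neighbours, and without overlap below them control siRNA (-1.67) and control siRNA plus Wnt3a (-1.71).

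BMP4 encodes a closely related ligand. It read -0.71, -0.69 and -1.19 in untreated cells and -0.52, -0.42 and -0.49 with Wnt3a, and -0.89, -0.71 and -1.18 and -0.45, -0.28 and -0.58 after control siRNA. In both backgrounds the Wnt3a arrays were the higher ones without overlap. The limma differences, 0.38 (-0.07 to 0.84, adjusted p 0.334) and 0.49 (0.03 to 0.94, 0.302), were not called, each positive on 3 of 3 slides. After β-catenin siRNA the values were -0.97, -1.10 and -1.14 without and -1.32, -1.34 and -1.37 with Wnt3a. Here the Wnt3a arrays were the lower ones, again without overlap. That difference of -0.27 (-0.72 to 0.18) was not called by limma (adjusted p 0.766), nor was its difference from the control siRNA response, -0.76 (-1.40 to -0.12, adjusted p 1). With Wnt3a in both groups, BMP4 was lower after β-catenin siRNA than after control siRNA (limma -0.90, -1.36 to -0.45, adjusted p 0.00885), within slides -0.87, -1.05 and -0.79. The call was lost by limma with spike-in scaling (0.0952) and without slide 1 (0.144) or 2 (0.211), over a range of 0.000234 to 0.211.

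With FZD8_CRD, BMP4 read -0.91, -0.96 and -2.10 without and -1.70, -1.97 and -1.78 with Wnt3a. Replicate 3 of FZD8_CRD alone was the lowest of the 6 arrays, so the groups overlapped. Against Wnt3a alone the combination lowered BMP4 (limma -1.34, -1.79 to -0.89, adjusted p 8.18e-05), within slides -1.17, -1.54 and -1.30, a call kept in 21 of 21 settings. The Wnt3a difference with FZD8_CRD was -0.50 (limma adjusted p 0.188), within slides -0.79, -1.01 and 0.31, and its difference from the response without FZD8_CRD was -0.88 (-1.52 to -0.24, adjusted p 0.217), uncalled though past the study's thresholds. FZD8_CRD alone gave -0.46 (limma adjusted p 0.0961), called with the slide as block (0.0404) and without untreated replicate 3 (0.0396) or FZD8_CRD replicate 1 (0.0243) or 2 (0.0357), over a range of 0.0243 to 0.723. By mean level, control siRNA plus Wnt3a (-0.44) and Wnt3a (-0.48) came first, then without overlap 5 groups from untreated (-0.86) to β-catenin siRNA plus Wnt3a (-1.34), and then, apart from that last group, FZD8_CRD plus Wnt3a (-1.82).

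BMP7 encodes a ligand of another subfamily. Of its 3 probes, 2 were above background on 0 of 24 arrays and 1 on 8 of 24. That probe read -4.60, -5.19 and -4.91 after control siRNA plus Wnt3a, the 3 arrays that let it into the test, and -6.13, -5.86 and -6.13 after control siRNA alone. The Wnt3a arrays were the higher ones, but the probe was tested only because of them. The control arrays were not well above background, so no size is given for the difference. With β-catenin siRNA plus Wnt3a it read -5.18, -6.12 and -5.91, which overlapped with control siRNA plus Wnt3a. The limma adjusted p values of these 2 comparisons, 0.0152 and 0.0229, are no evidence of a difference, since the high group itself put the probe into the test. They held under 0.05 in 9 of 19 and 8 of 19 settings (limma, 0.0114 to 0.253 and 0.00317 to 0.332).

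ID1, ID2 and ID3 encode the dominant-negative helix-loop-helix proteins that BMP signalling induces. Their promoters, the 250 bases before the transcript start in the RefSeq annotation of build GRCh38.p14, lie at chr20:31605039-31605288 (plus strand) for ID1, chr2:8681806-8682055 (plus strand) for ID2 and chr1:23559502-23559751 (minus strand) for ID3. Matches to the SMAD motifs GGCGCC and CAGAC and to the TCF/LEF motif TCAAAG are in capitals on either strand. ID1 and ID2 hold 0 matches, and ID3 holds 1 CAGAC at 147 bases and 1 CTTTGA at 179 bases before the start. Of 35116 promoters, 16.4% hold GGCGCC, 38.0% CAGAC and 11.2% TCAAAG, so a match is a description only.
ID1: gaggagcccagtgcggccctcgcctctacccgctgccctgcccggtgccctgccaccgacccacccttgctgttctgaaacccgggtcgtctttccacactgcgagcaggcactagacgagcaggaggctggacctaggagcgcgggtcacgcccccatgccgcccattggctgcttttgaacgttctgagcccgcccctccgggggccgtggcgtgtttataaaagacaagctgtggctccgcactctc
ID2: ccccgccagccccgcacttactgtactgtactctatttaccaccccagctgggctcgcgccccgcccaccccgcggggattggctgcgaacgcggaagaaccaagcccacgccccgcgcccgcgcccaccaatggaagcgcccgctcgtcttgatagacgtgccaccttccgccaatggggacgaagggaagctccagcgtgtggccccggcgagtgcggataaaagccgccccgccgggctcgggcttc
ID3: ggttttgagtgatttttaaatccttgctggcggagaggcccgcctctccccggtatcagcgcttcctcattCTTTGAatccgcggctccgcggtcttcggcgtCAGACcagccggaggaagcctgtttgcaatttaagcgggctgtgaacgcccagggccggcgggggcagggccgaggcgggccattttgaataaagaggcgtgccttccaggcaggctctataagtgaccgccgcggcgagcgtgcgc

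ID1 read 4.68, 4.59 and 4.80 in the control siRNA group, against 5.38, 5.51 and 5.45 where β-catenin was the target. The β-catenin siRNA arrays were all high, with no overlap. ID1 rose by 0.76 (limma, 0.50 to 1.01, adjusted p 0.000395), and by 0.74 with Wnt3a in both groups (0.000381). The first call was lost by limma with spike-in scaling (0.216) and without slide 2 (0.0612; range 4.58e-05 to 0.216), and the second with spike-in scaling (0.519) and without slide 1 (0.0743; range 1.64e-05 to 0.519). Untreated cells read 4.57, 4.69 and 4.36 and cells with FZD8_CRD 5.64, 5.69 and 5.14. Every FZD8_CRD array was above every untreated array, replicate 3 the least so. The rise was 0.95 (limma, 0.70 to 1.20, adjusted p 5.06e-06), and 0.82 when both groups had Wnt3a (0.57 to 1.08, 3.31e-05). Only spike-in scaling, of the 21 settings run for each, ended these calls (limma 0.122 and 0.0925; ranges 4.79e-07 to 0.122 and 1.18e-05 to 0.0925). Control siRNA against Wnt3a alone, with Wnt3a in both, gave 0.34 (limma adjusted p 0.0853), called with the slide as block (0.0424) and without Wnt3a replicate 2 (0.0471; range 0.0424 to 0.362). Wnt3a gave uncalled ID1 differences of -0.16, 0.03, 0.02 and -0.28 in the 4 backgrounds; limma put 1 of them, with FZD8_CRD, under an unadjusted p of 0.05. Mean levels put FZD8_CRD (5.49), β-catenin siRNA plus Wnt3a (5.46) and β-catenin siRNA (5.45) first and FZD8_CRD plus Wnt3a (5.21) next. The remaining 4 groups, from 4.73 to 4.38, came last, with no overlap between neighbours at the 2 gaps. FZD8_CRD, lowest at 5.14, did overlap with FZD8_CRD plus Wnt3a, highest at 5.26.

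ID3 read 2.62, 2.64 and 2.45 in untreated cells, 4.10, 4.18 and 3.65 with FZD8_CRD, 2.59, 2.72 and 2.59 with Wnt3a and 4.22, 4.08 and 3.76 with both. The FZD8_CRD arrays were high with and without Wnt3a, far from overlap. FZD8_CRD raised ID3 by 1.41 (limma, 1.16 to 1.66, adjusted p 1.70e-07), within slides 1.48, 1.54 and 1.20, and by 1.39 with Wnt3a in both groups (1.14 to 1.64, 2.56e-07). Each call was kept in 21 of 21 settings. The control siRNA group gave 2.92, 2.73 and 2.91 and the β-catenin siRNA group 3.68, 3.76 and 3.64, with no overlap and the latter high. The rise was 0.85 (limma, 0.59 to 1.10, adjusted p 0.000124) and, with Wnt3a in both groups, 0.81 (0.55 to 1.06, 0.000138); only spike-in scaling, of 21 settings each, ended these calls (0.161 and 0.442; ranges 3.21e-05 to 0.161 and 2.27e-05 to 0.442). Control siRNA plus Wnt3a read 2.90, 3.14 and 3.06, above Wnt3a alone (limma 0.40, 0.15 to 0.65, adjusted p 0.0407), a call kept in 11 of 21 settings (0.0153 to 0.322). It was lost by limma with spike-in scaling (0.322), no filter (0.0853), only the groups compared (0.176), the study's thresholds, and without slide 1 (0.258) or 2 (0.231). Wnt3a replicates 1 (0.167 by limma when absent) and 3 (0.105) and control siRNA plus Wnt3a replicates 2 (0.187) and 3 (0.111) were each needed for it. Without Wnt3a the control siRNA gave 0.28 (limma adjusted p 0.1, with the slide as block 0.0457; range 0.0457 to 0.997). Wnt3a differences were 0.07, 0.18, 0.14 and 0.05 in the 4 backgrounds, and limma called 0 of them, with 0 under an unadjusted p of 0.05. In level the groups with FZD8_CRD or β-catenin siRNA, from 4.02 to 3.70, lay above control siRNA plus Wnt3a (3.04) and control siRNA (2.85), and these above Wnt3a (2.63) and untreated (2.57), without overlap between the 3 steps.

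ID2 went the other way with FZD8_CRD. It read 4.68, 4.44 and 4.0 in untreated cells and 3.38, 3.33 and 3.19 with FZD8_CRD, and 4.07, 3.60 and 4.08 with Wnt3a and 3.17, 3.22 and 3.17 with both. All FZD8_CRD arrays were below all arrays without it in these pairs of groups. ID2 fell with FZD8_CRD (limma -1.07, -1.35 to -0.80, adjusted p 3.55e-06) and with Wnt3a in both groups (-0.73, -1.01 to -0.45, 0.000252), each call kept in 21 of 21 settings. Control siRNA gave 3.62, 3.58 and 3.63, also below every untreated array (limma -0.76, -1.04 to -0.49, adjusted p 0.000525), lost without slide 1 (0.0759; range 3.59e-05 to 0.0759). β-catenin siRNA gave 4.27, 4.09 and 4.31, high again without overlap with control siRNA. That rise was 0.61 (limma, 0.34 to 0.89, adjusted p 0.00488), lost with spike-in scaling (0.401) and without slide 1 (0.105) or 2 (0.076; range 0.00272 to 0.401). With Wnt3a in both groups it was 0.15 (limma adjusted p 0.605), and the difference of the Wnt3a responses, -0.46 (-0.85 to -0.07), was uncalled (1).

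The Wnt3a call of ID2 in untransfected cells (-0.46, limma adjusted p 0.0484) rested on overlapping groups, with Wnt3a low on slides 1 and 2 and not on slide 3 (within slides -0.60, -0.84 and 0.08). It was kept in 9 of 21 settings (limma 0.00278 to 1) and ended with quantile (0.065) or spike-in scaling (0.0949), no filter (0.101), the mean of probes (0.134), only the groups compared (0.519), the deposited table (0.0574) and the study's thresholds. Leaving out slide 1 (limma 0.414), slide 2 (1), untreated replicate 1 (0.259) or 2 (0.158) or Wnt3a replicate 2 (0.363) ended it too. After β-catenin siRNA Wnt3a gave ID2 -0.36 (limma adjusted p 0.334), after control siRNA 0.09 and with FZD8_CRD -0.11. The second ID2 probe had a correlation of 0.96 with the first over 24 arrays and gave -0.93 for FZD8_CRD, -0.76 for control siRNA, 0.65 for β-catenin siRNA and -0.32 for Wnt3a. Untreated (4.37) and β-catenin siRNA (4.22) cells were highest in mean level, the 3 groups from Wnt3a (3.92) to control siRNA plus Wnt3a (3.70) next, then control siRNA (3.61), and FZD8_CRD (3.30) and FZD8_CRD plus Wnt3a (3.19) last, without overlap of neighbours at each step. The difference of the Wnt3a responses between FZD8_CRD and none was 0.35 for BMP2, -0.12 for ID1, 0.35 for ID2 and -0.02 for ID3, and between the siRNAs 0.07 for BMP2, -0.02 for ID1 and -0.04 for ID3, none of them called by limma. Over 24 arrays the correlation of ID1 with ID3 was 0.93, of ID1 with ID2 -0.27, of ID2 with ID3 -0.49, of NOG with FST 0.72, of NOG with BMP4 0.70 and of BMP2 with ID2 0.51. The lowest were BMP4 with ID3 at -0.65, BMP4 with ID1 at -0.54 and NOG with ID1 at -0.51.

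Leaving out replicate 3 of FZD8_CRD alone changed several member calls. The array was picked on these same data, as it lay nearest to the FZD8_CRD plus Wnt3a group. Its absence therefore tends to widen the differences between those groups. The values and adjusted p values without it, here and for lists and markers below, are a description only. For Wnt3a with FZD8_CRD, 4 members were then called, all lower: NOG (-0.71, limma adjusted p 0.00199; range over settings 0.00199 to 1), FST (-0.70, 0.00164; 0.00164 to 0.853), BMP4 (-0.88, 0.000198; 0.000145 to 1) and ID1 (-0.46, 0.00359; 0.000881 to 1). All-gene calls for that comparison went from 2044 to 4916, or 19.9%. For the difference of the Wnt3a responses, NOG (-1.71, limma adjusted p 2.77e-05), FST (-1.23, 0.000541) and BMP4 (-1.27, 0.000399; range 0.000399 to 1) were then called, where all-gene calls went from 18 to 1911, or 7.75%. For FZD8_CRD against untreated cells FST was called as well (0.59, limma adjusted p 0.00328), BMP4 went to -0.07 (0.723) and NOG to 0.37 (0.0551), while ID1 (1.12), ID2 (-1.02), ID3 (1.57) and BMP2 (-0.47) were again called. Leaving out all of slide 3 gave for Wnt3a with FZD8_CRD -0.74 for NOG, -0.71 for FST, -0.90 for BMP4 and -0.41 for ID1, all called by limma, and BMP4 was called for the difference as well (-1.12, adjusted p 0.0012). What sets this array apart was not tested.

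Besides the members, 7 lists of other pathway genes held 71 genes, of which 54 were tested. With Wnt3a, 2 of 54 were called higher and 2 lower without transfection (5.6% of all genes called). The counts were 3 and 0 after control siRNA (2.11%), and 5 and 3 with FZD8_CRD (8.29%). After β-catenin siRNA limma called 0 of 54 (0.0406% of all genes called). There 7 of 54 and 2575 of 24648 genes had an unadjusted limma p under 0.05. Control siRNA raised 4 and lowered 10 (22.3% of all genes called; with Wnt3a 3 and 5, 9.04%), and β-catenin siRNA raised 5 and lowered 4 (10.6%; with Wnt3a 4 and 7, also 10.6%). FZD8_CRD raised 13 and lowered 13 (41.9% of all genes called), and with Wnt3a 6 and 12 (37.2%). For the 2 differences of Wnt3a responses limma called 0 of 54 each, with 2 (siRNA) and 12 (FZD8_CRD) at an unadjusted p under 0.05. Of all 24648 genes, 822 (siRNA) and 3128 (FZD8_CRD) were under that unadjusted limma p. Of 13 other antagonists and modulators tested, Wnt3a raised BMP1, a protease that cleaves the antagonist chordin (limma 0.79, adjusted p 2.01e-05; after control siRNA 0.38, 0.019; with FZD8_CRD 0.64, 0.000217), which is also on the study's own list. DAND5 fell without transfection (limma -0.66, adjusted p 0.0262), SOST rose after control siRNA (1.17, 0.0395), and with FZD8_CRD TLL1 rose (1.24, 0.0283) and FSTL1 fell (-0.80, 0.0114). Among 6 other target genes DLX5, also on the study's list, rose with Wnt3a without transfection (limma 1.24, adjusted p 0.000113), after control siRNA (1.30, 0.000117) and with FZD8_CRD (0.90, 0.00162), where HEY1 rose too (0.83, 0.0245). Of 12 SMADs and intracellular inhibitors Wnt3a with FZD8_CRD raised SMAD7 (limma 0.48, adjusted p 0.0274) and lowered TOB1 (-0.65, 0.00162), and of 7 genes of the activin arm it lowered INHBB (-1.20, 0.0013), and Wnt3a without transfection lowered ACVR1C (-0.49, 0.00796). None of 3 other ligands was called by limma in any of the 12 comparisons, with 0 at an unadjusted p under 0.05 in each; of 10 receptors limma called 0 in the 4 Wnt3a comparisons, with 1, 1, 0 and 0 at an unadjusted p under 0.05; of 3 E proteins 1 was called, higher with FZD8_CRD. In a control list, 4 of 7 Wnt feedback genes rose with Wnt3a without transfection and 4 after control siRNA, 2 rose with FZD8_CRD, and limma called 0 after β-catenin siRNA, with 1 at an unadjusted p under 0.05. Of those risen, LEF1, TCF7 and RNF43 were chosen by the study on these same arrays, so the counts are not separate evidence, and NKD1 entered the test only through control siRNA plus Wnt3a. β-catenin siRNA lowered 4 of these 7, and 6 with Wnt3a (5 of 6 without NKD1), and the Wnt3a response of RNF43 differed between β-catenin and control siRNA (limma -1.23, adjusted p 0.0013).

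Without replicate 3 of FZD8_CRD alone, 7 of the 54 were called higher and 8 lower for Wnt3a with FZD8_CRD (19.9% of all genes called), 14 and 13 for FZD8_CRD against untreated cells (40.6%), and 3 and 6 for the difference of the Wnt3a responses (7.75%). These counts and values are a description only, as the array was picked on the same data. The genes named above for Wnt3a with FZD8_CRD were all called again. Of 5 antagonists and modulators called there, and with SOST set aside, the differences were TLL1 (limma 1.74, adjusted p 0.000264), FSTL1 (-1.17, 2.40e-08), BMPER (-1.03, 0.000272) and BMP1 (0.71, 3.94e-06). The SMAD list gave SKIL (limma 0.88, adjusted p 0.0293), TOB1 (-0.80, 5.50e-06), SMAD7 (0.63, 0.000972) and SMAD6 (-0.34, 0.0223). The other lists gave HEY1 (limma 1.09, adjusted p 0.000895), DLX5 (1.05, 4.46e-05), ATOH8 (-0.40, 0.0349), INHBB (-1.57, 3.13e-09), ACVR1B (0.89, 0.018) and, of 10 receptors, ACVR2B (-0.36, 0.0146). For the difference the 9 were BMPER (limma -1.60, adjusted p 0.000269), FSTL1 (-1.12, 7.16e-06), CHRD (1.01, 0.025), DAND5 (0.89, 0.0336) and SOST among the antagonists, SMAD6 (-0.63, 0.00707), TOB1 (-0.61, 0.00473), SMAD7 (0.56, 0.042) and INHBB (-1.51, 9.35e-07). SOST, the fifth antagonist called in both, was well above background on 0 of the 3 FZD8_CRD plus Wnt3a arrays, so no size is given for it. Against untreated cells FSTL1, ACVR2A and ACVR2B were newly called by limma, while TLL1 and SOST were no longer. Of the 7 Wnt feedback genes TCF7 and RNF43 were again called for Wnt3a with FZD8_CRD, and LEF1 was then called for the difference (limma -0.86, adjusted p 0.0228).

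Marker levels moved between the same groups, and only some of the members called in a comparison are named beside it. Hepatocyte markers fell in 9 of 9 after control siRNA (median log2 difference -2.02) and with FZD8_CRD (-2.33). ID2 and BMP2 fell in both comparisons, while ID1 and ID3 rose with FZD8_CRD. When Wnt3a was present 5 of 9 hepatocyte markers fell in each (-1.32 and -1.07). There BMP2 fell only with control siRNA and ID2 only with FZD8_CRD. β-catenin siRNA without Wnt3a raised BMP2 and ID2, with no hepatocyte marker called. With Wnt3a without transfection limma called 0 of 9, with 3 at an unadjusted p under 0.05 (median -1.09), and with β-catenin siRNA 0 of 9, with 2 (median 0.68). With β-catenin siRNA plus Wnt3a against control siRNA plus Wnt3a 2 of 9 were called higher (median 0.68). Wnt3a with FZD8_CRD also raised 2 of 9, with 4 at an unadjusted limma p under 0.05 (median 0.41). The summed hepatocyte signal, in multiples of the 75th percentile, was 1490, 1106 and 775 in untreated cells, 406, 373 and 388 with control siRNA, 624, 473 and 598 with the siRNA against β-catenin and 365, 245 and 369 with FZD8_CRD, ALB being the most abundant. Mesenchymal markers, of which LUM, DCN, COL1A1 and COL3A1 are on the study's own list, rose in 5 of 7 with Wnt3a without transfection (median 0.71) and 2 of 7 after control siRNA (0.49), where NOG rose, and fell in 4 of 7 with β-catenin siRNA (-0.79) and in 5 of 7 with β-catenin siRNA plus Wnt3a (-1.20), the comparison in which NOG and BMP4 fell. PDGFRB entered the test only through control siRNA; without it 3 of 6 fell with β-catenin siRNA (median -0.55) and 5 of 6 with β-catenin siRNA plus Wnt3a (-1.33), and the other mesenchymal counts of calls stayed the same. After β-catenin siRNA limma called 0 of 7 for Wnt3a, with 0 at an unadjusted p under 0.05, and with FZD8_CRD 3 of 7 rose with Wnt3a, where no member was called; with FZD8_CRD plus Wnt3a against Wnt3a alone, where NOG, FST and BMP4 fell, 2 of 7 rose and 3 fell. For the difference of the Wnt3a responses between FZD8_CRD and none, in which NOG was called, limma called 0 of 9 hepatocyte markers, with 5 at an unadjusted p under 0.05 (median 1.21), and 1 of 7 mesenchymal markers, lower (median -0.05). The summed mesenchymal signal was 49.7, 68.6 and 57.5 in untreated cells, 97.2, 92.2 and 99.2 with Wnt3a, 44.0, 50.5 and 36.3 with control siRNA, 24.6, 22.5 and 20.8 after β-catenin siRNA, 38.5, 36.0 and 28.9 with FZD8_CRD and 39.7, 39.6 and 39.6 with FZD8_CRD plus Wnt3a. Of 7 biliary and progenitor markers 1 rose and 3 fell with FZD8_CRD, and likewise when Wnt3a was present in both groups. Of 4 endothelial markers well above background on all arrays 1 fell in each of these comparisons, and 1 for Wnt3a with FZD8_CRD. The summed endothelial signal, with KDR the most abundant, was 3.47, 4.22 and 3.46 in untreated cells, 2.86, 2.25 and 3.43 with Wnt3a, 1.85, 1.67 and 0.98 with FZD8_CRD and 0.83, 0.78 and 0.95 with FZD8_CRD plus Wnt3a. Without replicate 3 of FZD8_CRD alone, hepatocyte markers were called lower in 9 of 9 with FZD8_CRD (median -2.85), 4 of 9 higher and 1 lower for Wnt3a with FZD8_CRD, and 4 higher for the difference; of 7 mesenchymal markers 3 were higher and 1 lower for Wnt3a with FZD8_CRD, 3 and 2 for FZD8_CRD against untreated cells, and 1 and 2 for the difference; of the biliary and progenitor markers 0 rose and 1 fell with FZD8_CRD. The part of these markers in the member results was not tested, and in such bulk RNA fewer cells of a type and less RNA per cell cannot be told apart.

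**Figure D4:**
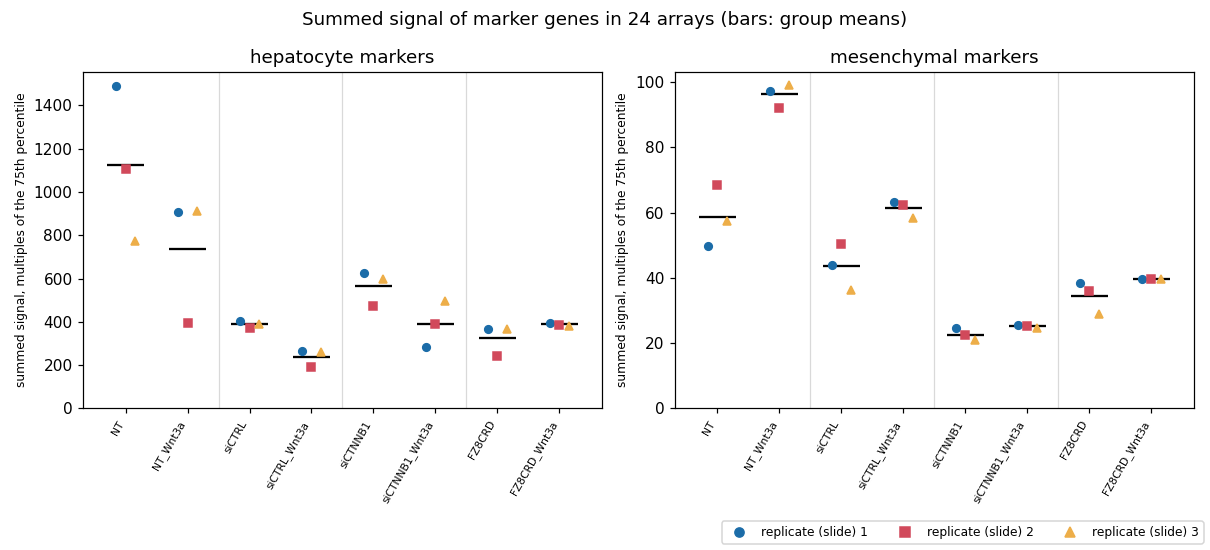
Summed hepatocyte and mesenchymal marker signal of each array in multiples of its 75th percentile, with group means as bars. Hepatocyte signal is 1490 on untreated replicate 1 and 191 on control siRNA plus Wnt3a replicate 2.

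Scaling on 7 spike-in probes moved the median of all genes by -0.39 for Wnt3a without transfection, 0.16 after control siRNA, -0.13 after β-catenin siRNA, -0.28 for control siRNA, 0.27 for control siRNA with Wnt3a, -0.20 for β-catenin siRNA with Wnt3a and -0.39 for FZD8_CRD. For the differences of Wnt3a responses it moved by -0.29 (siRNA) and 0.30 (FZD8_CRD). The share of called genes that were higher went from 53.4% to 7.51% for Wnt3a without transfection, from 51.7% to 98.1% after control siRNA and from 52.5% to 63.8% with FZD8_CRD. It went from 54.9% to 7.92% for control siRNA, from 38.6% to 6.24% for β-catenin siRNA with Wnt3a, from 47.0% to 7.45% for FZD8_CRD, from 49.0% to 28.1% for FZD8_CRD with Wnt3a and from 27.8% to 93.8% for the difference with FZD8_CRD. With quantile scaling that last share was 48.0%, and the share for Wnt3a after β-catenin siRNA went from 90.0% to 71.4%. None of the 29 called member values, the BMP7 calls among them, turned sign under spike-in scaling or any other setting run.

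Over 24 arrays and 14649 genes searched, the profiles most like NOG were those of LUM (0.88), JCAD (0.84), ALDH7A1 (0.84), and those most like FST were SLC23A2 (0.87), ITGA11 (0.85), FOXF1 (0.84). For BMP2 they were CUX2 (0.95), NSG1 (0.92), PTPRK (0.91), and for BMP4 ANGPT1 (0.93), PCOLCE (0.92), PTPRG (0.92). ID1 was nearest to MAP3K3 (0.94), ID3 (0.93), DUSP1 (0.93), ID2 to LEAP2 (0.97), ABAT (0.96) and ID3 to EI24 (0.95), MB21D2 (0.95), YWHAH (0.94). These correlations describe likeness over the 8 groups and say nothing of shared function.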

How the data were processed

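RNA of 24 HepaRG cultures was hybridised to one-colour Agilent arrays of 62976 spots. Per the file headers, Feature Extraction 10.7.1.1 made the background-corrected intensity of each spot, on a probe annotation of build hg19. The deposited table of log2 values, 25443 rows, was scaled by the authors and centred at a median of 0 for each probe, and it served as an alternative only.

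From the scanner files, outlier spots were left out, spots of a probe were averaged, and log2 signals were scaled to the 75th percentile of each array, with a floor at -6.13. A probe was kept when all 3 arrays of 1 or more groups read it well above background (31067 of 50683), with the probe of highest mean for each gene, which gave 24648 genes. limma 3.58.1 with a mean-variance trend in R 4.3.3 (with version 1.17.8 of data.table) fitted 8 group means and 12 comparisons, with Benjamini-Hochberg adjustment over all genes, and it was tested on simulated data. A member or listed gene was called at a limma adjusted p under 0.05. Of each list at most 4 called genes by size of log2 difference are given with values for a Wnt3a comparison or a difference of Wnt3a responses. Without replicate 3 of FZD8_CRD alone, SOST is named outside this order, as no size is given for it. The members and lists were chosen with earlier results of these data known. Likeness was the correlation over 24 arrays among genes well above background on all of them. Figures and promoter searches used Python 3.11.15 with numpy 2.4.6, pandas 2.3.3 and matplotlib 3.10.9.

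The alternatives were normexp background correction with an offset of 50, quantile scaling, scaling on 7 spike-in probes, no filter, a filter that asks for all 24 arrays, averaging over the probes of a gene, a floor of 1 unit, outlier spots kept, the slide as block, only the groups compared, the deposited table, the study's thresholds (unadjusted p of 0.01 and a fold above 1.5 or below 0.7), and leaving out each replicate number and each array. Precision is limited by the 3 arrays of a group. Protein was not analysed here.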

Additional observations from a re-analysis of the deposited data

Results flagged for a closer look

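NOG is given a closer look because its response to Wnt3a differed between cells with and without FZD8_CRD by the test of the difference itself: -1.45 on the log2 scale, at a limma adjusted p of 0.0399. Within slides the difference was -1.66, -2.04 and -0.66. The call held in 12 of 27 settings (limma adjusted p 2.77e-05 to 1). It was lost on leaving out any 1 of 9 of the 12 arrays compared, with spike-in scaling (limma 0.626), only the groups compared (0.672), a filter on all 24 arrays (0.0611), the deposited table (0.0537) and without slide 1 (1) or 2 (1). NOG was also chosen by the study on these same arrays for its responses to Wnt3a, β-catenin siRNA and FZD8_CRD, so this is not a separate observation.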

How the results depend on the processing

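Of 29 called member values 7 kept direction and call under every one of the settings run for them and 0 turned sign. The 29 include the BMP7 calls for Wnt3a after control siRNA and for β-catenin siRNA with Wnt3a, which are no evidence of a difference. Of 67 uncalled values 15 were called under at least 1 setting, 30 changed sign under at least 1, and 0 were called with the opposite sign. The cause of these differences was not tested.

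The member counts, with BMP7 included where it was tested, moved as follows. Normexp correction gave 1 for Wnt3a after control siRNA in place of 2, as did the filter on all 24 arrays, the floor of 1 unit and the deposited table. In each of these NOG was still called and BMP7 was not called or not tested. Spike-in scaling gave 0 for Wnt3a without transfection, 0 for Wnt3a after control siRNA, 0 for control siRNA with Wnt3a, 1 for β-catenin siRNA, 0 for β-catenin siRNA with Wnt3a and 0 for the difference with FZD8_CRD. That difference was 0 also with the filter on all 24 arrays, only the groups compared and the deposited table. No filter gave 1 for Wnt3a without transfection and 1 for control siRNA with Wnt3a. The mean of probes gave 1 for Wnt3a without transfection. Only the groups compared gave 0 for Wnt3a without transfection and 0 for control siRNA with Wnt3a. The study's thresholds gave 1 for Wnt3a without transfection, 1 for Wnt3a after β-catenin siRNA, 1 for control siRNA with Wnt3a and 3 for the difference with FZD8_CRD. For control siRNA with Wnt3a that was BMP7 alone, which is no evidence of a difference, while BMP2 and ID3 were lost. Under quantile scaling and with outlier spots kept no member count moved by over 1.5 times.

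Leaving out replicates or single arrays gave members called, with BMP7 included, from 0 to 3 for Wnt3a without transfection, 0 to 2 after control siRNA, 0 to 0 after β-catenin siRNA and 0 to 4 with FZD8_CRD. It gave 0 to 2 for control siRNA, 0 to 4 with Wnt3a, 2 to 4 for β-catenin siRNA, 3 to 6 with Wnt3a, 3 to 6 for FZD8_CRD and 5 to 6 with Wnt3a. For the differences it gave 0 to 0 (siRNA) and 0 to 3 (FZD8_CRD). Where a replicate number was left out, each group kept 2 arrays.

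With the replicate number (the slide) as block, limma called 1 member for Wnt3a with FZD8_CRD (0 without the block), 2 for the difference with FZD8_CRD (1), 3 for Wnt3a without transfection (2), 3 for control siRNA (2), 3 with Wnt3a (2), 5 for β-catenin siRNA (4) and 6 for FZD8_CRD (4), and the block changed no other member call. Arrays of the same number deviated together with a mean correlation of 0.38 over 84 pairs, 82 of them over 0.1 (lowest -0.06), against -0.19 over 168 pairs of different numbers, and 24 of 24 arrays correlated best with their own number. The files record the slide, while the labels do not say that cultures of a number were made together, so the fit without the block was kept. That fit leaves the shared deviation of a slide in its spread. For the NOG difference with FZD8_CRD the limma adjusted p was 0.00813 with the block and 0.0399 without. With the block the all-gene calls were 2823 for Wnt3a without transfection, 1073 after control siRNA, 42 after β-catenin siRNA and 3298 with FZD8_CRD. They were 7913 for control siRNA, 3754 with Wnt3a, 4095 for β-catenin siRNA, 3846 with Wnt3a, 13147 for FZD8_CRD, 11950 with Wnt3a, and 10 (siRNA) and 149 (FZD8_CRD) for the differences.

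All-gene calls ranged over the settings from 2 to 6344 for Wnt3a without transfection (1381 as given), 4 to 1329 after control siRNA (520), 0 to 314 after β-catenin siRNA (10) and 0 to 5328 with FZD8_CRD (2044). They ranged from 233 to 7913 for control siRNA (5501), 1 to 4045 with Wnt3a (2227), 182 to 4321 for β-catenin siRNA (2604) and 588 to 3846 with Wnt3a (2608). For FZD8_CRD they ranged from 5516 to 13147 (10322), with Wnt3a from 2362 to 11950 (9162), and for the differences from 0 to 140 (4, siRNA) and 0 to 2989 (18, FZD8_CRD).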

Other observations

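GREM1 was well above background with both of its probes on the same single array, replicate 3 of β-catenin siRNA plus Wnt3a, at -5.43 and -4.87. The other 2 arrays of that group read the floor of -6.13 with each probe.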
